A study of Mus musculus with 11 samples.

Results

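The genes described here are the connexins of the brain vessel wall and 1 pannexin: Gja1, Gja4, Gja5, Gjc1, Gjb2, Gjb6 and Panx1. They were chosen by gene symbol, as 7 of the 32287 genes in the count tables and 7 of the 23 connexin and pannexin genes among them. The rule used no measured value, but the choice was made with earlier results of these data known. Their raw counts were summed in each mouse over 8 classes of vessel wall cells, which were large-artery, arterial, capillary, venous and fenestrated endothelial cells (EC), smooth muscle cells (SMC), pericytes (PC) and fibroblasts. None of the 7 genes was used to sort cells into these classes.

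The series holds single-cell RNA sequencing of brain vessel cells from 6 R182C-TgN3 mice, a mouse model of CADASIL, and 5 WT-TgN3 control mice. CADASIL is an inherited disease of small arteries caused by variants of NOTCH3, a receptor of SMC and PC. Each mouse gave 1 library, made from microvascular fragments that were captured with beads against the endothelial protein CD31. The question of the genotype comparison is whether the R182C variant of NOTCH3 goes with other levels of these genes in the vessel wall. Mice of both groups carried a human NOTCH3 transgene, with the R182C change in one group and without it in the other, and both also carried transcribed mouse Notch3. R182C-TgN3 mice 1, 2 and 3 and WT-TgN3 mice 4 and 5 were 9 months old, and the other mice were 6 months old. Both sexes were present in each group, and the mice were untreated. The mice fell into 4 labelled batches. Batches 1 and 2 held the mice of 9 months and batches 3 and 4 those of 6 months, so age and batch cannot be told apart. Batch 2 held a single R182C-TgN3 mouse.

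A gap junction is a cluster of channels that join the cytoplasm of neighbouring cells, and each channel is built from connexin proteins of both cells. In arteries, such channels carry electrical signals along the endothelium and from endothelium to smooth muscle, and through them a change of vessel diameter spreads upstream. Different connexins form channels that differ in conductance and in the partners they accept. Pannexins resemble connexins in fold but mainly form channels to the outside of the cell, through which ATP is released.

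Cells were sorted into the classes by gates on marker genes. After filtering, 61625 cells were kept, and 30282 of them fell into the 8 classes, with 11536 capillary EC at one end and 106 fibroblasts at the other. Libraries held between 17550806 and 64215050 unique molecular identifiers (UMIs, which count single RNA molecules). The UMI sums of single mice were smallest in PC, at 47586 to 445403, and largest in venous EC, at 3774385 to 12692575, so low levels are less certain in PC. Only 5 mice had at least 10 fibroblasts, with 11 to 17 cells each. Among the kept cells 1553 had a barcode that also occurred in another library, of which 848 were vessel wall cells and 6.51% of the venous EC. The libraries of R182C-TgN3 mouse 4 and WT-TgN3 mouse 3 stood apart by SMC marker sums of 525 and 413 CPM (UMIs of a gene per 1000000 UMIs of the sum) in large-artery EC, against a median of 163 CPM over the mice. That of WT-TgN3 mouse 5 held 216 of the 218 cells gated as neurons and 52 of the 97 gated as astrocytes. Without each of these 3 libraries in turn, 14 pairs were still called in the class order tested below and 0 of the 7 genes between genotypes. Marker genes of SMC summed to 27607 to 34577 CPM in SMC and to 483 to 1561 CPM in PC. In the fibroblast sums, markers of endothelial cells summed to 52.9 to 1229 CPM, against 11344 to 17309 CPM in the 4 barrier EC classes. The gates used these same markers, so such sums describe the classes and do not test their separation. Human NOTCH3 was higher in R182C-TgN3 than in WT-TgN3 mice, with 176 to 333 against 13.6 to 65.0 CPM in SMC and 707 to 1707 against 324 to 486 CPM in PC. The variant and the level of the transgene therefore cannot be told apart in any genotype comparison here.

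The 7 genes divided the vessel wall among them. Gja1 (Cx43) had its highest level in fenestrated EC, Gja5 (Cx40) in large-artery EC, Gja4 (Cx37) in SMC and PC, and Gjc1 (Cx45) in PC. Gjb2 (Cx26) and Gjb6 (Cx30) had theirs in fibroblasts. Panx1 was low everywhere and was highest in fibroblasts and venous EC. The order of classes was tested gene by gene on differences within mice of log2(CPM + 1), with an exact sign-flip permutation test (2-sided) and p-values adjusted over 43 pairs of neighbouring classes. Of these pairs 14 differed, each with an adjusted p of 0.006. There were 5 such pairs for Gjc1, 3 each for Gja1 and Gja4, 2 for Gja5, 1 for Panx1 and 0 for Gjb2 and Gjb6. Pairs with fibroblasts could not pass, since 5 mice allow no exact p below 0.0625. Another 6 pairs had under 3 UMIs in both classes and were not tested.

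**Figure D1:**
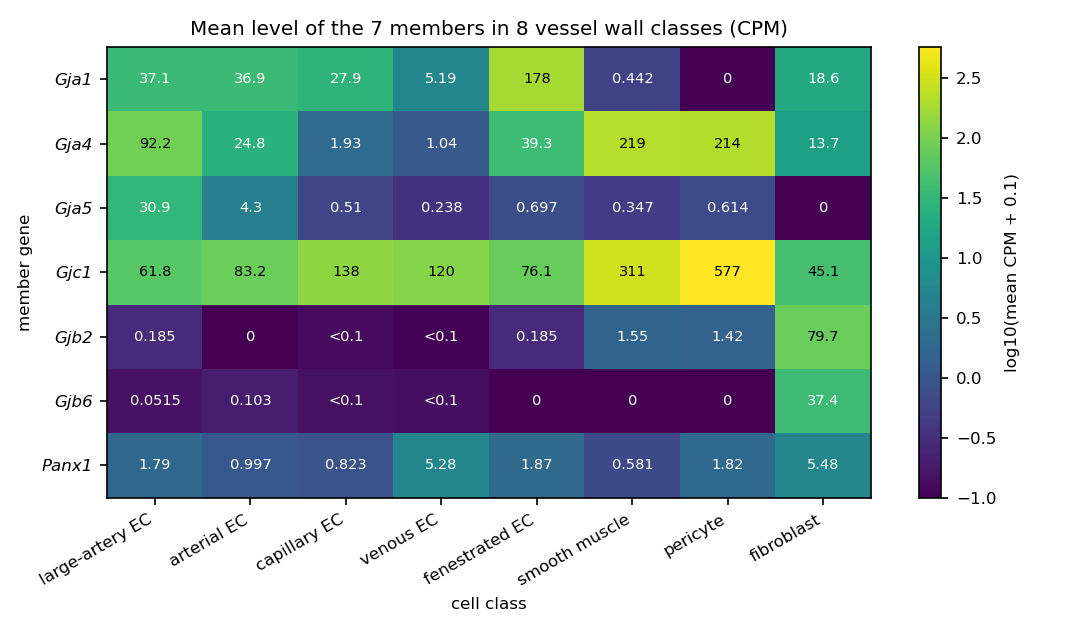
Mean level of each of the 7 genes (rows) in each of the 8 cell classes (columns), in CPM of the summed UMIs, averaged over 11 mice or, for fibroblasts, 5 mice. Colour is the log10 of the mean CPM plus 0.1 and the number in each cell is the mean CPM: Gjc1 reaches 577 CPM in pericytes and Gja1 178 CPM in fenestrated EC, while Gja1 is at 0 in pericytes.

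The promoters of 4 genes are shown, to let the upstream sequence be read beside the levels. Gja4 and Gja5 are shown as the pair that, within the endothelium, was highest in large-artery EC. Gjb2 and Gjb6 are shown as neighbours on chromosome 14, 18.6 kb apart, that share a high level in fibroblasts. Each is the 250 bases before the RefSeq start of the gene on build GRCm38.p6 (mm10), read in the direction of transcription. Capitals mark a match to 1 of 4 motifs that were searched on both strands. The first was GTGGGAA, the letters that RBPJ, the protein through which Notch acts on DNA, is known to bind. The other motifs were ACAAAG for factors of the SOX family, the GC box with the letters GGGCGG, and the box known by its letters TATAAA.
Gja4, chr4:127314040-127314289, minus strand: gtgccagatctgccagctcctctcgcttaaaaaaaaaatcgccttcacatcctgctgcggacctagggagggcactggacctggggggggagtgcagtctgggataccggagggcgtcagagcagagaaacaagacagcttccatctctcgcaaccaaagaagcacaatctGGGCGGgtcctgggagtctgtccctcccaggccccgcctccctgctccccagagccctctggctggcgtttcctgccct
Gja5, chr3:97032152-97032401, plus strand: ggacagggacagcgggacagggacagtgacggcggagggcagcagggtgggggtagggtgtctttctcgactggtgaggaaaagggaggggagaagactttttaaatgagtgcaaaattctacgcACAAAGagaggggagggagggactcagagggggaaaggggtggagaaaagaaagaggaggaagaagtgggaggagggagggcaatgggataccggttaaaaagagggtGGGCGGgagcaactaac
Gjb2, chr14:57104703-57104952, minus strand: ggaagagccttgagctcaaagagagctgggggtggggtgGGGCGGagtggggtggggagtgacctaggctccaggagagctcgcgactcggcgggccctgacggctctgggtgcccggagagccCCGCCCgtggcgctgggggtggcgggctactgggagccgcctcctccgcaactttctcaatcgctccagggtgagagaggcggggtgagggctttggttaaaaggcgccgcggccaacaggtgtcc
Gjb6, chr14:57133612-57133861, minus strand: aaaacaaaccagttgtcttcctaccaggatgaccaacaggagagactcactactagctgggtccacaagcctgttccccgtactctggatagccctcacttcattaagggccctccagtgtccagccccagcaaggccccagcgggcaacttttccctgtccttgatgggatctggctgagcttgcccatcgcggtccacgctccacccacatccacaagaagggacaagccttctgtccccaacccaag
The GC box occurred 79 bases upstream of the Gja4 start, 17 bases upstream of the Gja5 start, and 211 and 126 bases upstream of the Gjb2 start, the last on the opposite strand. The Gja5 window also held ACAAAG, 125 bases upstream. Of 32851 RefSeq promoter windows of the same length, 32.7% held GGGCGG, 16.5% ACAAAG, 12.4% TATAAA and 5.42% the RBPJ letters. No match was found in the windows of Gjb6, Gja1 or Panx1, and the RBPJ letters were in none of the 6 windows read. Gjc1 was not in the promoter table.

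Gja4, a connexin known from arterial endothelium and smooth muscle, was high in both kinds of mural cell. It lies at chr4:127311421-127314039 on the minus strand in GENCODE vM21. Its level in SMC ranged from 171 to 259 CPM over the 11 mice, with a median of 219 and a mean of 219 ± 22.3 CPM (SD, n = 11). In PC it ranged from 130.5 to 283 CPM, with a median of 222 and a mean of 214 ± 47.7 CPM (n = 11). The ranges of both mural classes overlapped almost entirely. The difference between them was 0.06 ± 0.35 (SD) on the log2(CPM + 1) scale, SMC being higher in 4 of 11 mice, and was not called (exact permutation test, adjusted p = 0.686). It was called by profile assignment (adjusted p = 0.0213). Large-artery EC came next, at 92.2 ± 20.8 CPM with a range of 63.2 to 126 CPM, which lay below every PC value. The step from PC down to large-artery EC was 1.21 ± 0.32 on the log2 scale and was present in 11 of 11 mice.

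Within the endothelium Gja4 fell stepwise from large-artery EC. Fenestrated EC had 39.3 ± 9.79 CPM and arterial EC 24.8 ± 6.28 CPM, and both steps were called, the second in 10 of 11 mice. Capillary EC had 1.93 ± 1.22 CPM and venous EC 1.04 ± 0.906 CPM. These last 2 classes did not differ beyond their spread, with capillary EC higher in 8 of 11 mice by 0.51 ± 0.64 (exact permutation test, adjusted p = 0.070). That pair was called when R182C-TgN3 mouse 3 or 6 was left out, the lower adjusted p being 0.0448. The 5 fibroblast sums had 0 to 29.9 CPM of Gja4.

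Counted per cell, the share of mural cells with Gja4 depended on depth. After each cell was thinned to 2000 UMIs, 33.9% of 1919 SMC and 30.9% of 460 PC held a Gja4 UMI. Large-artery EC followed with 16.1% of 3471 cells and fenestrated EC with 7.82% of 1407 cells. Microglia, which served as a class not known for Gja4, had 0.0576% of 12153 cells, at a median depth of 4988 UMIs against 8008 in SMC, 3161 in PC and 6825 in large-artery EC. Capillary EC, at 0.342%, and venous EC, at 0.17%, were low but above microglia. Without thinning the share was 75.6% in SMC and 47.1% in PC. Cells with fewer than 2000 UMIs were left out of thinned shares, which were 98 of 558 PC but 49 of 1968 SMC.

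Gja5, the connexin that is used as a label of arterial endothelium, was found mainly in the arterial classes. The file's gene model spans chr3:96904693-97077416 on the plus strand and overlaps genes on the opposite strand. The Gja5 promoter window shown above, set by the RefSeq start, lies inside this model and not before its start. Large-artery EC had 17.8 to 49.9 CPM of Gja5, with a median of 30.3 and a mean of 30.9 ± 9.76 CPM (SD, n = 11). Arterial EC had 1.70 to 7.88 CPM, with a mean of 4.30 ± 2.21 CPM. The ranges of these classes did not overlap, and the step was 2.64 ± 0.52 on the log2(CPM + 1) scale in 11 of 11 mice. The next step, to 0.697 ± 2.08 CPM in fenestrated EC, was also called, at 1.95 ± 1.11 in 10 of 11 mice. The mean in fenestrated EC rested on 9 UMIs from 2 mice. From there down no neighbouring classes differed, with 21 UMIs in capillary EC, 17 in venous EC, 4 in SMC, 1 in PC and 0 in fibroblasts. The share of cells with a Gja5 UMI after thinning was 4.49% in large-artery EC and 0.557% in arterial EC, against 0.107% in microglia.

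Few cells held both Gja5 and Gja4. Of 156 large-artery EC with a Gja5 UMI after thinning, 18.6% also held Gja4, and of the large-artery EC without Gja5, 16.0% did. None of 22 arterial EC with a Gja5 UMI held Gja4, against 4.18% of those without. These shares come from sparse counts and were not tested. The transcript with the pattern most like that of Gja5 over 82 sums of class and mouse was Dhh, a hedgehog ligand, with r = 0.89, then Apol9a and Pthlh at r = 0.89 each. All 3 had their highest mean in large-artery EC, at 14.5 CPM for Dhh, 19.4 CPM for Apol9a and 21.1 CPM for Pthlh.

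Gja1, the connexin best known from astrocytes and heart muscle, was found mainly in endothelium among the 8 classes. It lies at chr10:56377330-56402513 on the plus strand. In fenestrated EC its level ranged from 115 to 250 CPM, with a median of 168 and a mean of 178 ± 41.7 CPM (SD, n = 11). Fenestrated EC line vessels without a barrier, and their defining gene Plvap stood at 2333 CPM in these cells, with the barrier gene Cldn5 at 152 CPM. Both genes were among the gate markers, so these values describe the class and do not test it. Large-artery EC had 20.7 to 55.0 CPM of Gja1, all below the lowest fenestrated value, and the step of 2.25 ± 0.54 on the log2(CPM + 1) scale was present in 11 of 11 mice. Large-artery EC, at 37.1 ± 11.0 CPM, and arterial EC, at 36.9 ± 10.3 CPM, did not differ beyond their spread, the difference being -0.01 ± 0.50 (exact permutation test, adjusted p = 1).

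Below arterial EC, Gja1 decreased along the vascular tree. Capillary EC had 27.9 ± 6.31 CPM, lower than arterial EC in 10 of 11 mice by 0.38 ± 0.32 on the log2 scale. Venous EC had 3.57 to 7.42 CPM, with a mean of 5.19 ± 1.21 CPM, and each of these values was below each capillary value, the lowest of which was 15.3 CPM. SMC had 7 UMIs of Gja1 in all, in 4 mice, and PC had 0 UMIs among 558 cells, which allows a level of up to 1.55 CPM by counting error. The step from venous EC to SMC was called, in 11 of 11 mice. The 5 fibroblast sums ranged from 4.45 to 29.9 CPM, and the part of endothelial RNA in them was not tested.

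Counted per cell after thinning, 25.9% of fenestrated EC held a UMI, 6.31% of large-artery EC, 6.26% of arterial EC, 5.24% of capillary EC and 1.10% of venous EC. The order of the endothelial classes was that of their CPM, while fibroblasts, at 9.09% of 99 cells, ranked higher by cells than by CPM. Microglia had 0.0987%, and none of 1919 SMC and 460 PC had any. Marker genes of astrocytes, a cell type with much Gja1, summed to 0 to 17.9 CPM over 7 genes in fenestrated EC, with Aqp4 at 0 UMIs. In venous EC the same genes summed to 21.7 to 57.5 CPM, of which Slc1a3 made 38.2 CPM over all mice. The part of astrocyte RNA in Gja1 of the other endothelial classes was not tested. Clec1a, a C-type lectin receptor, had the pattern most like that of Gja1 (r = 0.96, 82 sums), followed by Pcdh17 (r = 0.93) and Plxna2 (r = 0.91), each highest in fenestrated EC. The genes Gja1 and Gjc1 had r = -0.81 over the same sums. Sums of 1 mouse share a library, so these values are descriptions.

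**Figure D2:**
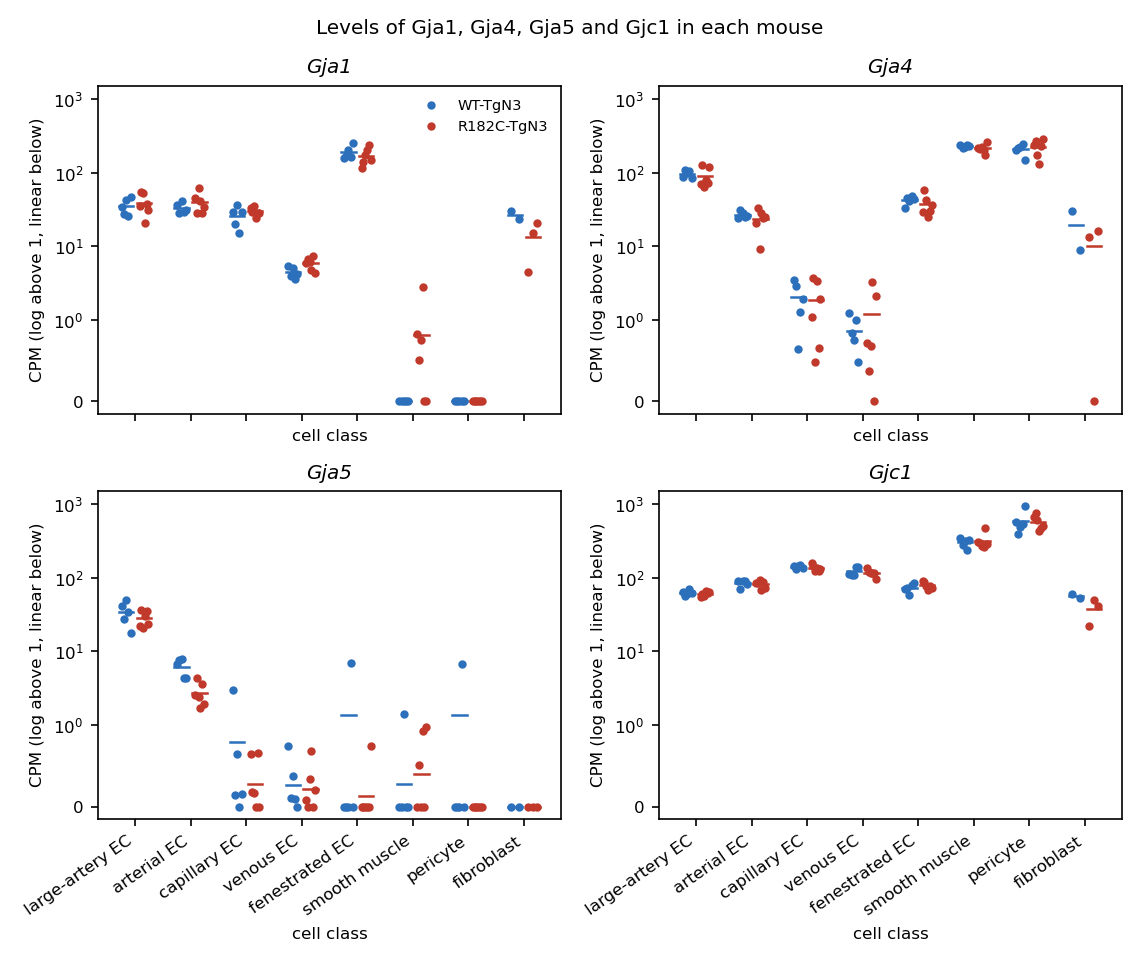
Level of Gja1, Gja4, Gja5 and Gjc1 (1 panel each) in every mouse, in CPM on an axis that is linear below 1 and logarithmic above, against the 8 cell classes. Each point is 1 mouse, blue for WT-TgN3 and red for R182C-TgN3, and bars are group means: genotypes overlap in nearly every class, while classes differ by up to 577 against 45.1 CPM for Gjc1.

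Gjc1 had UMIs in every class, with no class mean under 45.1 CPM. It is known as a connexin of vascular smooth muscle, and it lies at chr11:102799579-102819700 on the minus strand. PC had 390 to 946 CPM, with a median of 540 and a mean of 577 ± 161 CPM (SD, n = 11). SMC had 241 to 479 CPM, with a median of 301 and a mean of 311 ± 62.8 CPM. PC were higher than SMC in 10 of 11 mice, by 0.87 ± 0.44 on the log2(CPM + 1) scale, although the ranges of the classes overlapped. All endothelial values lay below all SMC values, the highest being 157 CPM in capillary EC.

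Within the endothelium Gjc1 was lowest in large-artery EC, where Gja4 and Gja5 were highest. Capillary EC had 138 ± 10.7 CPM, venous EC 120 ± 13.8 CPM and arterial EC 83.2 ± 8.92 CPM, and each step was called. The capillary and venous difference was small, 0.20 ± 0.15 on the log2 scale, and present in 10 of 11 mice. Arterial EC and fenestrated EC, at 76.1 ± 9.43 CPM, did not differ beyond their spread (0.13 ± 0.22, exact permutation test, adjusted p = 0.139). Large-artery EC were lowest of the endothelium at 61.8 ± 4.26 CPM, below fenestrated EC in 10 of 11 mice by 0.29 ± 0.22. This last call was lost (adjusted p = 0.305) when cells were assigned by their whole profile, which raised the large-artery mean to 85.6 CPM. Fibroblasts, in 5 mice, had 22.2 to 59.8 CPM.

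In the thinned cells Gjc1 was found in 61.7% of PC, 40.6% of SMC, 24.1% of capillary EC, 20.6% of venous EC, 15.9% of arterial EC, 14.3% of fenestrated EC and 10.7% of large-artery EC. Microglia held it in 0.239% of cells. Of the SMC with Gjc1, 34.0% also held Gja4, and of the SMC without Gjc1, 33.8% did. In PC these shares were 32.7% and 27.8%. The genes with the pattern most like that of Gjc1 were Ddit4l, Ndst3 and Itga4, with r = 0.91 each, all highest in PC. For Gja4 they were Dbndd2, Zbtb7c and Mcam, a cell adhesion molecule of mural cells, with r of 0.92, 0.91 and 0.91, all highest in SMC.

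Gjb2 and Gjb6, known together from the meninges, astrocytes and the inner ear, had nearly all their signal among the 8 classes in fibroblasts. They lie at chr14:57098600-57104702 and chr14:57123303-57133611, both on the minus strand. In the 5 mice with at least 10 fibroblasts Gjb2 stood at 93.4, 69.7 and 69.2 CPM in R182C-TgN3 mice 2, 5 and 6 and at 89.7 and 76.4 CPM in WT-TgN3 mice 1 and 4. Gjb6 stood at 62.3, 39.8 and 28.5 CPM and at 29.9 and 26.4 CPM in the same mice. Over all 106 fibroblasts of 11 mice there were 103 UMIs of Gjb2, or 70.5 CPM with an exact Poisson interval of 57.6 to 85.5 CPM, and 59 UMIs of Gjb6, or 40.4 CPM with an interval of 30.8 to 52.1 CPM. These intervals cover counting error only. Outside fibroblasts the highest mean of Gjb2 was 1.55 CPM in SMC, from 28 UMIs, and that of Gjb6 was 0.103 CPM in arterial EC, from 2 UMIs. Gjb6 had 0 UMIs in fenestrated EC, SMC and PC.

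The fibroblast values of both genes were above those of the next class in 5 of 5 mice. Gjb2 was higher than in SMC by 4.99 ± 0.66 on the log2(CPM + 1) scale and Gjb6 higher than in arterial EC by 5.19 ± 0.49, with an exact permutation p of 0.0625 each, the smallest that 5 mice allow, and an adjusted p of 0.139. When cells were assigned by profile, more mice had enough fibroblasts and both pairs were called, with an adjusted p of 0.020 each. In thinned fibroblasts 12.1% of 99 cells held Gjb2 and 10.1% held Gjb6, and 2 cells held both. Of the 7 astrocyte markers only Slc1a3 was present to any extent in fibroblasts, with 137 UMIs, while Aqp4, Aldoc, Mlc1, Ntsr2 and Gfap had 0 UMIs. Marker genes of arachnoid or meningeal fibroblasts summed to 12.2 to 149 CPM in these cells, so the class may be mixed, and the part of such cells in Gjb2 and Gjb6 was not tested. Gjb2 and Gjb6 had r = 0.89 with each other over the 82 sums. The transcripts most like Gjb2 were Hgf, a growth factor, Cyp2s1 and Wnt6, with r of 0.93, 0.92 and 0.92, and those most like Gjb6 were Sct, Fam83b and Rbp4, a retinol carrier, with r of 0.99 each.

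Panx1, the ATP release channel, lies at chr9:15002128-15045478 on the minus strand. Its highest well-measured mean was 5.28 ± 1.62 CPM (SD, n = 11) in venous EC, with a range of 2.43 to 7.17 CPM. Venous EC were above fenestrated EC, at 1.87 ± 1.42 CPM, in 10 of 11 mice by 1.29 ± 0.91 on the log2(CPM + 1) scale. Large-artery EC had 1.79 ± 0.989 CPM, arterial EC 0.997 ± 0.936 CPM, capillary EC 0.823 ± 0.772 CPM and SMC 0.581 ± 0.865 CPM, and no other neighbouring classes differed beyond their spread. The fibroblast mean of 5.48 ± 6.00 CPM (n = 5) rested on 5 UMIs. Venous EC were close to microglia, which had 4.05 ± 0.937 CPM of Panx1. After thinning, 0.989% of venous EC and 0.773% of microglia held a Panx1 UMI, so the venous value is at the level of another cell type in the same libraries.

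**Figure D3:**
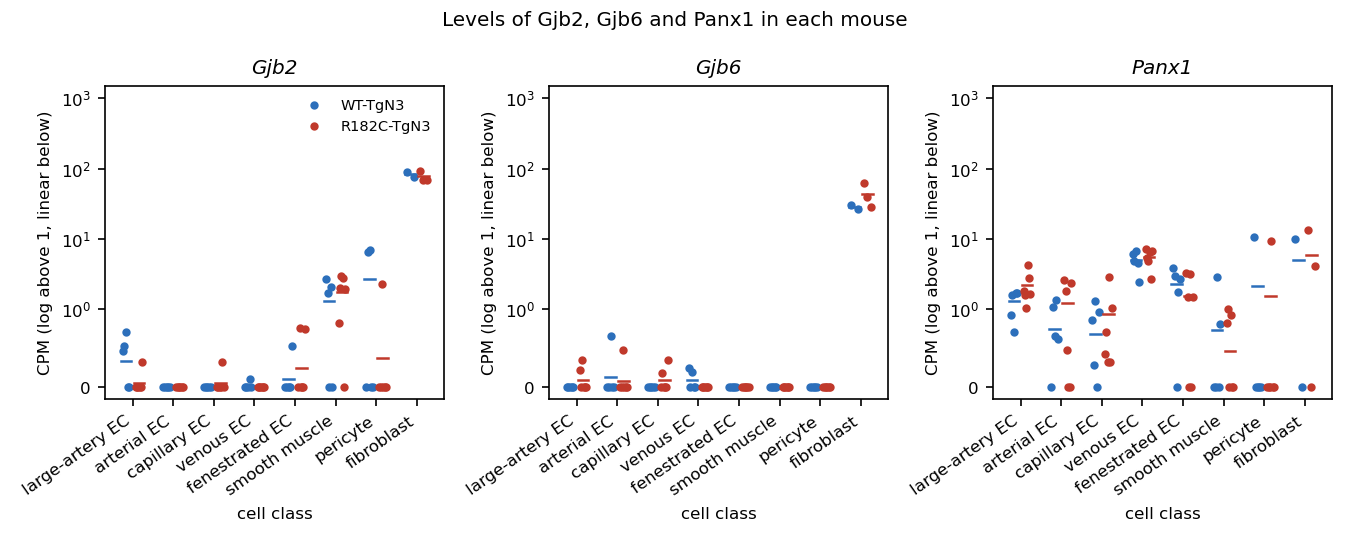
Level of Gjb2, Gjb6 and Panx1 (1 panel each) in every mouse, in CPM on an axis that is linear below 1 and logarithmic above, against the 8 cell classes. Each point is 1 mouse, blue for WT-TgN3 and red for R182C-TgN3, and bars are group means: Gjb2 and Gjb6 exceed 20 CPM in fibroblasts of all 5 mice shown there and stay under 10 CPM elsewhere.

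The genotypes were then compared within each class with edgeR's quasi-likelihood test on the sums per mouse, adjusted over all genes tested. No gene passed an adjusted p of 0.05 in large-artery, arterial, capillary, venous and fenestrated EC and in fibroblasts (0% called in each). The only gene that passed in SMC (0.0115% of 8705 genes) and in PC (0.0348% of 2876 genes) was human NOTCH3, which rose by 2.46 ± 0.28 (SE) and 1.58 ± 0.20 on the log2 scale in R182C-TgN3 mice. Members passed the filter on low counts in 22 of 56 combinations of gene and class, and 0 of these 22 were called. DESeq2 also called 0 members, and it called 0 genes in the 5 endothelial classes and fibroblasts. At an unadjusted p under 0.05 by edgeR there was 1 of the 22, Gja1 in venous EC. Among all genes tested, 173 of 11481 met that level in venous EC. In the 6 classes with no call the counts ran from 113 of 4713 in fibroblasts to 266 of 10987 in capillary EC. They were 221 of 8705 in SMC and 147 of 2876 in PC. The 22 log2 fold changes had a median of -0.01, and the median over all genes lay between -0.01 and 0.01 in every class. The filter left out Gjb6 in all classes, Gjb2 outside fibroblasts, Panx1 outside venous EC, Gja5 outside large-artery EC, Gja1 in SMC, PC and fibroblasts, and Gja4 in venous EC and fibroblasts.

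Among the 22 combinations that passed the filter, Gja1 in venous EC had the lowest p. Without the filter, Gja5 in arterial EC and Gja1 in SMC had lower p, neither of them called. In venous EC the R182C-TgN3 mice ranged from 4.25 to 7.42 CPM with a median of 5.92, and the WT-TgN3 mice had 5.42, 3.86, 5.09, 3.57 and 4.21 CPM. R182C-TgN3 mice lay higher as a group, but 2 of the 6, at 4.25 and 4.76 CPM, were within the range of the controls. The log2 fold change was 0.43 ± 0.18 (SE), or 1.35-fold with an interval of 1.05 to 1.74 at 2 SE (edgeR adjusted p = 1.00). Within batches the difference of log2(mean CPM + 1) was 0.57 in batch 1, 0.33 in batch 3 and -0.21 in batch 4, the last from 1 mouse per genotype.

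In the other barrier endothelium the estimates of Gja1 had the same sign but were smaller. Arterial EC had 28.4 to 62.4 CPM (median 37.6) in R182C-TgN3 mice and 36.1, 28.3, 40.7, 29.5 and 31.3 CPM in the controls. The log2 fold change there was 0.36 ± 0.19. In capillary EC it was 0.30 ± 0.17 and in large-artery EC 0.20 ± 0.22, and in fenestrated EC it was -0.14 ± 0.18. None of these passed the test by edgeR, with adjusted p of 1.00 each, and the groups overlapped in all 4 classes. Within batches the differences were 0.26, 0.10 and -0.24 in arterial EC and 0.47, 0.07 and -0.36 in capillary EC for batches 1, 3 and 4, so the sign turned in batch 4 in both. SMC held Gja1 UMIs in 4 of the 6 R182C-TgN3 mice and in 0 of the 5 WT-TgN3 mice, but these were 7 UMIs in all and 2.78 CPM at most.

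**Figure D4:**
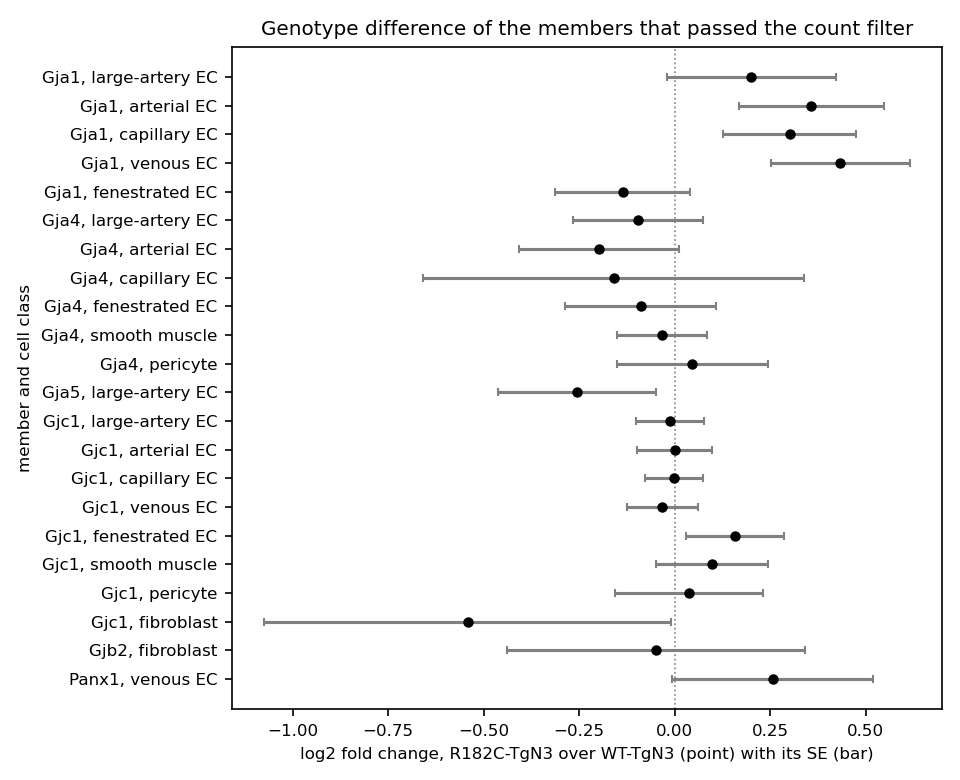
Log2 fold change of R182C-TgN3 over WT-TgN3 (horizontal axis, no difference at the dotted line) for the 22 combinations of gene and cell class that passed the filter on low counts. Points are edgeR estimates and bars 1 SE on each side: estimates for Gjc1 lie between -0.54 in fibroblasts and 0.16 in fenestrated EC, and the largest standard error, 0.53, belongs to Gjc1 in fibroblasts.

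The estimates of Gja5 and Gja4 were below 0 in all endothelial classes where they passed the filter, with no call. Gja5 in large-artery EC had 20.6 to 36.1 CPM (median 27.0) in R182C-TgN3 mice and 41.7, 27.5, 49.9, 34.6 and 17.8 CPM in WT-TgN3 mice. The control values spanned those of the other group, and the log2 fold change of -0.26 ± 0.21 was not called (0.838-fold, interval 0.628 to 1.12, edgeR adjusted p = 1.00). In arterial EC, where Gja5 was too low for the filter, R182C-TgN3 mice had 1.70 to 4.37 CPM (median 2.47) and WT-TgN3 mice 6.71, 7.52, 7.88, 4.37 and 4.30 CPM. Only R182C-TgN3 mouse 2 reached the range of the controls. Without the filter the log2 fold change was -1.05 ± 0.33 with an edgeR adjusted p of 0.982 over 16066 genes. The 3 highest values were of WT-TgN3 mice of 6 months, and at 9 months in batch 1 the R182C-TgN3 mice had 2.58 and 4.37 CPM and the WT-TgN3 mice 4.37 and 4.30 CPM. These arterial EC values of Gja5 come from 111 UMIs over all mice. In the other classes without the filter, Gja5 was at -0.81 ± 0.95 (SE) in capillary, -2.30 ± 1.23 in fenestrated and 0.0049 ± 0.51 in venous EC. Gja4 in venous EC was then at 0.52 ± 0.61, and none of these was called.

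No genotype shift of Gja4 was detected in mural cells. In SMC, where NOTCH3 is made, Gja4 ranged from 171 to 259 CPM (median 213) in R182C-TgN3 mice and stood at 233.5, 213, 219, 237 and 229.7 CPM in WT-TgN3 mice. The controls lay inside the range of the R182C-TgN3 mice. The fold was 0.977 with an interval of 0.829 to 1.15, and in PC it was 1.03 with an interval of 0.784 to 1.36. In endothelium the log2 fold change of Gja4 was -0.10 ± 0.17 in large-artery EC, -0.20 ± 0.21 in arterial EC, -0.16 ± 0.50 in capillary EC and -0.09 ± 0.20 in fenestrated EC. None was called by edgeR. Gja4 in arterial EC of R182C-TgN3 mouse 3, at 8.99 CPM, was far below the other mice, which had at least 20.4 CPM.

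Gjc1 was the gene whose genotype difference was best bounded. Its fold was 0.999 (interval 0.900 to 1.11) in capillary EC, 0.978 (0.859 to 1.11) in venous EC, 1.00 (0.874 to 1.15) in arterial EC and 0.992 (0.876 to 1.12) in large-artery EC. These were the 4 smallest standard errors of the 22 estimates. In SMC, R182C-TgN3 mice ranged from 265 to 479 CPM (median 295) and WT-TgN3 mice stood at 342, 281, 318, 241 and 329 CPM. The highest value was that of R182C-TgN3 mouse 5, which also had the fewest SMC, 58 cells. The fold was 1.07 (0.875 to 1.31) in SMC, 1.03 (0.785 to 1.34) in PC and 1.12 (0.934 to 1.33) in fenestrated EC. In fibroblasts, with 3 against 2 mice, it was 0.687 (0.328 to 1.44) for Gjc1 and 0.967 (0.563 to 1.66) for Gjb2. Panx1 in venous EC gave 1.19 (0.830 to 1.72).

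Age was set beside these values without a test, since it cannot be told apart from batch. Gjc1 in venous EC was at 118 to 142 CPM in the 5 mice of 9 months and at 97.4 to 117 CPM in the 6 mice of 6 months, without overlap, with means of 131 ± 11.0 and 110.5 ± 7.16 CPM. It was the only 1 of 20 combinations of gene and class in which the ages did not overlap. Of all genes with a level to compare, 0.819% lay higher at 9 months without overlap in venous EC, and 0.777% in large-artery, 0.995% in arterial, 0.91% in capillary and 0.515% in fenestrated EC, 0.597% in SMC and 0.417% in PC. Genes lower at 9 months made 0.74% in venous, 0.447% in large-artery, 0.544% in arterial, 0.755% in capillary and 0.108% in fenestrated EC, 0.207% in SMC and 0.104% in PC. In PC, Gjc1 had a mean of 701 ± 158 CPM at 9 months, from 540 to 946 CPM, and of 474 ± 60.7 CPM at 6 months, from 390 to 566 CPM. These groups overlapped. Fenestrated EC had 83.8 ± 6.05 against 69.7 ± 6.36 CPM, again with overlap. In SMC the means ran the other way, 289 ± 33.5 at 9 months and 329 ± 78.3 CPM at 6 months.

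**Figure D5:**
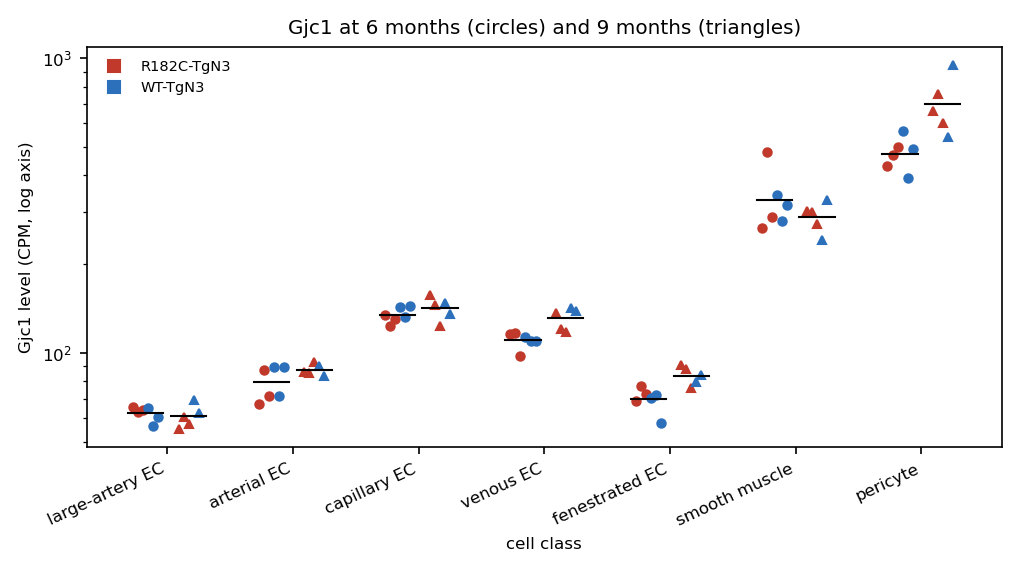
Gjc1 level in CPM (logarithmic axis) in 7 cell classes, with mice of 6 months as circles and mice of 9 months as triangles, red for R182C-TgN3 and blue for WT-TgN3. Bars are means of each age: the ages separate in venous EC, 97.4 to 117 against 118 to 142 CPM, and overlap in the other 6 classes.

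None of the 16 other connexins and pannexins passed the filter on low counts in any class. The list of gap junction scaffolds and partners held 12 symbols, of which Nov is an older name of Ccn3. Of these symbols 11 were in the tables, 5 to 10 were tested per class and 0 were called by edgeR. There were 0 to 1 per class at an unadjusted edgeR p under 0.05. Median log2 fold changes ran from -0.11 in fibroblasts to 0.09 in PC. Tjp1, which encodes the scaffold that binds the tail of several connexins, ranged in the barrier endothelium from 964 ± 112 CPM in large-artery EC to 1759 ± 177 CPM in venous EC. Nedd4, a ubiquitin ligase that acts on Cx43, had 473 CPM in fenestrated EC, 469 CPM in SMC, 733 CPM in PC and 1198 CPM in fibroblasts. Of 11 purinergic genes, which act on the ATP that pannexin channels release, 0 to 5 were tested per class and 0 were called, with 0 to 1 at an unadjusted p under 0.05. Entpd1, the enzyme that breaks down ATP at the cell surface, had 505 ± 84.2 CPM in large-artery EC and 306 ± 49.7 CPM in SMC. In PC the adenosine receptor gene Adora2a had 89.5 ± 24.9 CPM, with a log2 fold change between genotypes of -0.06 ± 0.26.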

How the data were processed

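Brain vessel cells of 11 mice were sequenced with a droplet 3′ kit, 1 library per mouse. According to the submitters' processing notes, reads were aligned and counted with Cell Ranger 7.0.0 against mm10, to which the study added human NOTCH3. The deposited values are raw UMI counts per gene and barcode, filtered to called cells by the authors and otherwise not normalized. Strand and intron settings of the counting are not given in the sources used here.

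Cells were kept where 500 genes or more were detected and mitochondrial UMIs made no more than 10%. A cell entered a type when its summed marker level reached 25% of that type's reference level with at least 3 markers detected. Cells that passed several types (3687) or none (1452) were left out, and so were 10729 endothelial cells without a subtype. A subtype passed at 50% of its own reference level. Capillary EC also had to stay under 25% for arterial, venous and fenestrated markers and under 50% for large-artery markers. Venous EC had to stay under 25% for arterial and fenestrated markers. Arterial EC had to stay under 25% for venous and fenestrated markers and not pass as large-artery EC. Large-artery EC passed for both arterial and large-artery markers but not for fenestrated ones. Fenestrated EC had to pass only for their own markers. The gate thresholds were set after marker levels were seen. Doublets were removed only through the rule on several types. Gates are cuts on a score: 1.52% to 15.9% of the cells of a class lay less than 10% of the reference level from its cut, except 0% in fibroblasts. Assignment by whole profile gave 87.3% of gated cells the same class, with less agreement between neighbouring EC classes. The profiles were summed from these same gated cells and kept the gate markers. Part of this agreement is therefore built in, and it does not test the gates. Of 6914 venous EC, 5292 kept their class and 1598 became capillary EC. Of 3619 large-artery EC, 2829 kept theirs and 740 became arterial EC. In the mural classes 1948 of 1968 SMC and 550 of 558 PC kept theirs.

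UMIs were summed per mouse and class for mice with at least 10 cells. Levels are CPM and are compared between classes. Genes of a list are ordered by CPM only to choose which to name. Tests did not include genes of ribosomal proteins, mitochondrial genes and models named Gm or Rik. Genotypes were tested with edgeR 4.0.16 in R 4.3.3 (quasi-likelihood test, TMM, filterByExpr, Benjamini-Hochberg over all genes, threshold 0.05), which was checked on simulated counts. Fold intervals are the estimate and 2 SE on each side. A count of 0 was read as allowing 3 UMIs. The smallest exact p with 11 mice is 0.001. The class order was tested in Python 3.11.15 (scipy 1.17.1, numpy 2.4.6), and figures were drawn with matplotlib 3.10.9 from tables made with pandas 2.3.3. Alternatives were DESeq2 1.42.0, its size factors, no filter, batch, sex or a replicate block, at least 20 cells or 1000 genes, profile assignment, and each mouse left out. Another 3 were added after the data were seen: leaving out shared barcodes, leaving WT-TgN3 mouse 5 out of the astrocyte sums, and the genotype tests in large-artery and fenestrated EC.

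The text names the 7 genes in every class, NOTCH3 and Notch3, the 3 genes of the highest Pearson r of log2(CPM + 1) to each gene with a mean of at least 10 CPM in a class, among 11618 genes, and, by the rule, the 2 highest of each list, of which the text gives the highest. Some items are not reported here. The genes, lists and markers were chosen with earlier results of these data known. Promoter sequences are from RefSeq on GRCm38.p6 and positions from GENCODE vM21 on GRCm38. Each library is 1 animal, so p-values measure the spread between mice.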

Additional observations from a re-analysis of the deposited data

Results flagged for a closer look

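Gjc1 in SMC of R182C-TgN3 mouse 5 was 479 CPM, far from the other 5 mice of its genotype, the nearest of which had 302 CPM, a gap of 0.826 of the whole range. It was 1 of 40 groups of gene, class and genotype examined for such a gap, and chance gives about 1 in 20. This mouse had 58 SMC. Its part in the SMC mean was measured by leaving it out, and the genotype difference of Gjc1 in SMC was then -0.03 on the log2 scale against 0.10 with it.

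The 97 cells gated as astrocytes, which no comparison used, held 4 of the genes above the limit of 2.39 CPM that a count of 0 allows. Gja1 was at 184 CPM (exact Poisson interval 161 to 209), Gjb6 at 40.6 CPM (30.3 to 53.4), Gjc1 at 20.7 CPM (13.5 to 30.3) and Panx1 at 18.3 CPM (11.6 to 27.5). Gja4 and Gja5 had 0 UMIs among 1255269. Most UMIs of these pooled sums came from 1 library. That library gave 58 of the 231 Gja1 UMIs and 4 of the 51 Gjb6 UMIs. WT-TgN3 mouse 5 gave 52 of the 97 cells and 1030442 of the UMIs, and it also held 216 of the 218 cells gated as neurons. Astrocyte markers summed to 1006 CPM in its cells and to 4176 to 15880 CPM in the other mice that had any. Without this library Gja1 was at 769 CPM (659 to 893) and Gjb6 at 209 CPM (154 to 278), while Gjc1 and Panx1 had 1 UMI each, against 25 and 22 UMIs in WT-TgN3 mouse 5. The levels without this library were computed after the data were seen.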

How the results depend on the processing

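The call that no connexin or pannexin differed between genotypes held under every alternative run, including DESeq2, and the log2 fold change of Gja1 in venous EC stayed between 0.32 and 0.52. Counts over all genes were less stable. PC had 53 genes called without the filter on low counts, 6 with the replicate block, 2 with at least 20 cells, and 1 to 3 with each mouse left out (2 without R182C-TgN3 mouse 1 or WT-TgN3 mouse 5, 3 without WT-TgN3 mouse 3). Fibroblasts had 18 without the filter, 1 by profile assignment, and 0 to 25 with each mouse left out (25 without WT-TgN3 mouse 1). Fenestrated EC had 1 with the replicate block. In the class order 14 pairs were called in the direction of the means, 21 by profile assignment and 14 to 15 with a mouse left out. The pair of PC and capillary EC for Gja5 was called, against the direction of the means, only without WT-TgN3 mouse 4 (exact permutation test, adjusted p = 0.0219), and likewise that of PC and large-artery EC for Panx1 only without WT-TgN3 mouse 1 or by profile assignment. The cause of these shifts was not tested.

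Estimates close to 0 changed sign. For Gjc1 in arterial EC they were -0.0033 without the filter, -0.057 with batch, -0.014 with sex, -0.059 with the replicate block and -0.0017 without shared barcodes. For Gjc1 in capillary EC they were 0.0018 by DESeq2, 0.0061 with batch, 0.0022 with sex, 0.0040 with the replicate block, 0.0080 with at least 1000 genes, 0.0027 by profile and 0.0046 without shared barcodes. Others were Gjc1 in PC with batch (-0.034) or the replicate block (-0.024), Gja4 in PC with at least 20 cells (-0.010), Gjb2 in fibroblasts with batch (0.057) or sex (0.010), and by profile Gjc1 in large-artery EC (0.039) and Gja4 in fenestrated EC (0.043). With each mouse left out, Gjc1 ranged from -0.056 to 0.049 in arterial, -0.041 to 0.031 in capillary, -0.081 to 0.020 in venous and -0.037 to 0.028 in large-artery EC, from -0.031 to 0.14 in SMC and from -0.074 to 0.21 in PC. Gja4 then ranged from -0.11 to 0.012 in SMC, -0.030 to 0.13 in PC and -0.29 to 0.0012 in fenestrated EC, and Gjb2 in fibroblasts from -0.21 to 0.029.

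The replicate block joined mice by age and by the number in their labels, in 5 pairs. Their deviations mostly did not go together, as 0 to 3 of 5 pairs had r over 0.1 in a class. Only 0 to 3 of 10 mice were closest to their own partner. The highest r was 0.359, for the mice of 9 months with number 2 in venous EC. With 5 pairs this check cannot settle whether the numbers pair the mice. No paired analysis was possible in fibroblasts because too few pairs had 10 cells, nor was the fit with at least 20 cells.

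Profile assignment moved the mean of Gja1 in fibroblasts to 34.8 CPM and that of Gjb2 to 62.6 CPM. Depth limits Gjb2, Gjb6, Panx1 and Gja5 outside the classes named for them, where sums of few UMIs cannot show a genotype difference.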

Other observations

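The 10729 endothelial cells that passed no subtype gate were left out of the class comparisons. They had 126 ± 10.3 CPM of Gjc1 (SD, n = 11), 23.8 ± 8.21 CPM of Gja1 and 6.15 ± 5.73 CPM of Gja4. These values lay between those of capillary and venous EC for Gjc1 and Gja1, and between those of arterial and capillary EC for Gja4. Gja5 was at 0.687 ± 0.839 CPM and Panx1 at 1.36 ± 0.834 CPM, while Gjb2 and Gjb6 had 4 and 7 UMIs in all.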
